A study of Mus musculus with 10 samples.

Results

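This account concerns 8 genes for amino acid transporters in the liver, given as a list of names, out of 12148 genes in a count table of liver RNA. All 8 were found by matching Ensembl identifiers to GENCODE symbols on the mouse genome GRCm38, and all 8 were among the 12147 genes tested. The livers came from 10 wild-type germ-free (GF) C57BL6 mice, animals raised without any microbes. In 5 mice, 80 μg of microbiota-derived extracellular vesicles (MEV) in PBS, isolated from the gut content of control SPF mice, was given by mouth 2 times a week for 3 weeks (GF+MEV), and in 5 mice PBS alone on the same schedule (GF+PBS). Age and sex of the germ-free mice are not given in the sources used here, and each library came from the whole liver of 1 mouse. The comparison asked how MEV changed the liver transcriptome, and here how it changed the genes that carry amino acids into and out of hepatocytes.

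The liver takes up alanine, glutamine, arginine and other amino acids from portal blood, uses their carbon for glucose and their nitrogen for urea, and releases some of them again. The proteins that move them across the plasma membrane belong to solute carrier (SLC) families. SLC38 proteins take up small neutral amino acids or glutamine together with sodium, SLC7 proteins carry cationic or large neutral amino acids, often bound to a heavy chain of the SLC3 family, SLC1 proteins carry glutamate or small neutral amino acids, and SLC16A10 and SLC43A1 let aromatic and branched-chain amino acids pass down their gradients. Several of these genes are known to respond to fasting, to glucagon and glucocorticoids, and to a lack of amino acids.

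Libraries held between 15746119 and 20523649 counts on genes in GF+MEV and between 16140770 and 19733387 in GF+PBS. Values are given as CPM (read counts scaled to library size by edgeR's TMM) and, for levels compared between genes, as RPKM (CPM per kilobase of annotated exon). A gene was called where edgeR's quasi-likelihood test gave an adjusted p under 0.05. By this rule 500 of all tested genes were higher in GF+MEV (4.12%) and 428 lower (3.52%), and the share of calls that were higher moved from 53.9% to 41.2% with upper-quartile scaling and 32.5% with library totals alone. Of the 8 transporter genes, 3 were called higher, Slc38a2, Slc7a2 and Slc43a1, and none lower. Their median log2 fold change was 0.25, against -0.004 over all tested genes. The members were chosen with earlier results of these data known, so this contrast is a description and not a test. In 3 of the 8, Slc38a2, Slc7a2 and Slc38a4, the lowest GF+MEV liver stood over the highest GF+PBS liver, where 7.39% of all tested genes had no overlap between the groups in either direction. By DESeq2, 4 were called higher and 1, Slc38a3, lower, where DESeq2 called 657 of all 12147 tested genes higher and 544 lower. In whole-liver RNA, fewer cells of a type and less RNA per cell cannot be told apart.

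**Figure D1:**
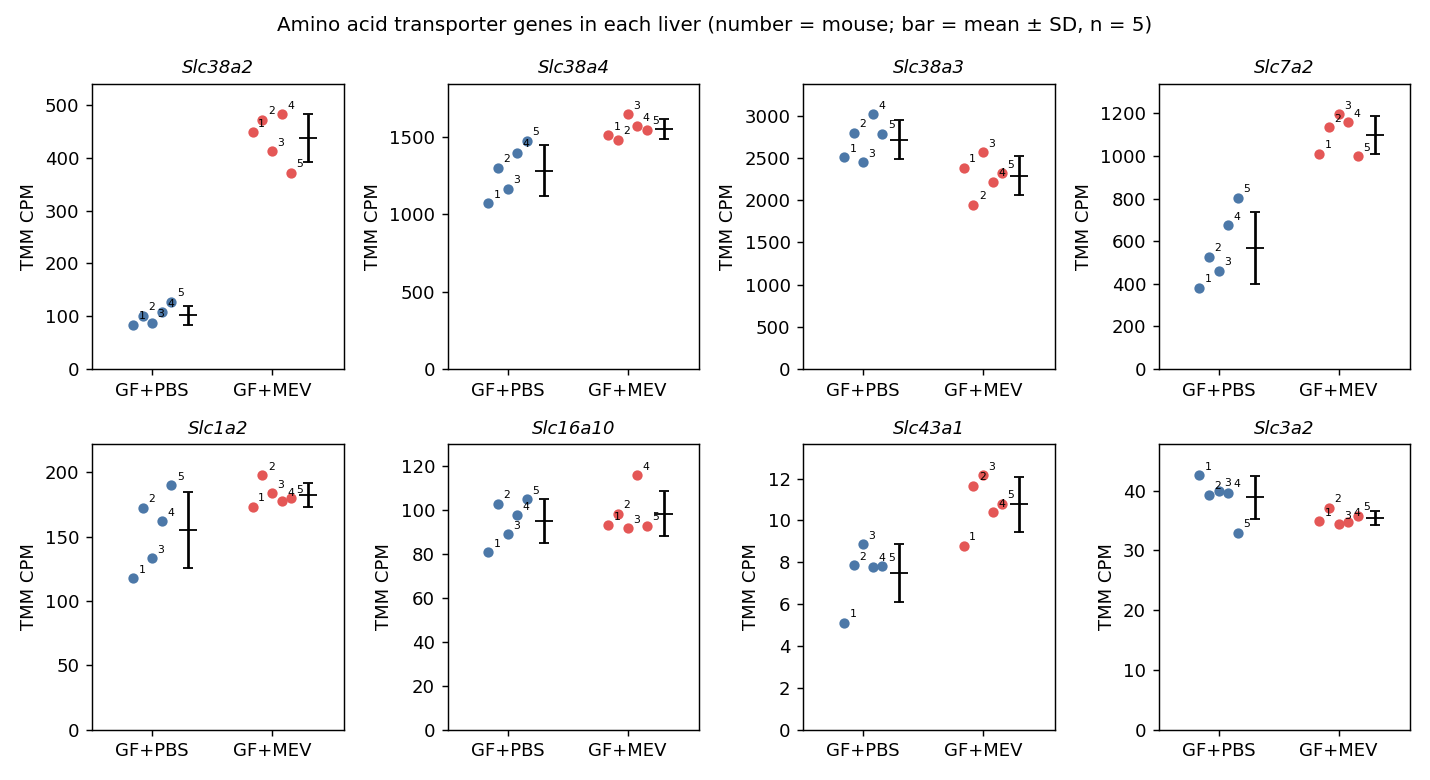
TMM-scaled CPM (y axis, from 0) of the 8 transporter genes in each GF+PBS (blue) and GF+MEV (red) liver, with the mouse number beside each point and the mean ± SD of 5 livers as a black bar. For Slc38a2 the GF+MEV livers lie between 372 and 483 CPM and the GF+PBS livers between 84.1 and 127 CPM, while the groups overlap for Slc1a2, Slc16a10, Slc3a2, Slc38a3 and Slc43a1.

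Slc38a2 (ENSMUSG00000022462) showed the largest change of the 8. It encodes SNAT2, a sodium-coupled carrier of small neutral amino acids such as alanine (transport system A), and lies on chromosome 15 from 96687392 to 96699730, on the minus strand. In GF+MEV livers 1 to 5 it was at 449, 473, 414, 483 and 372 CPM. In GF+PBS livers 1 to 5 it was at 84.1, 101, 87.4, 107 and 127 CPM. The groups did not overlap, and the lowest GF+MEV liver stood far above the highest GF+PBS liver. The means were 438 ± 45.6 and 101 ± 17.3 CPM (SD, n = 5 each), a fold of 4.32 and a log2 fold change of 2.11 ± 0.13 (SE, adjusted p = 2.8e-08 by edgeR). The two-sided exact permutation test of log2 CPM gave p = 0.00794, the smallest that 5 against 5 livers allow.

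RefSeq promoters (GRCm38.p6) were at hand for 6 of the 8 genes, 8 promoters in all. The 2 genes without one were Slc7a2 and Slc38a3. Shown here are the 250 bases before the annotated start of the called genes that had one, Slc38a2 (chr15:96699729-96699978, minus strand) and Slc43a1 (chr2:84840073-84840322, plus strand), each read 5′ to 3′ on the strand of the gene, with capitals for a match to one of the motifs searched. The RefSeq start of Slc43a1 lies inside the GENCODE gene, downstream of its first base.
Slc38a2: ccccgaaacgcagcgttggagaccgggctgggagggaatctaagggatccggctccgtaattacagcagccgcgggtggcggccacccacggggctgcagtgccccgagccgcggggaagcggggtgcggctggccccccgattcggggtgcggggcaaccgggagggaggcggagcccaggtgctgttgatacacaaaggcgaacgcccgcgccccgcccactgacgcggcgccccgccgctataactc
Slc43a1: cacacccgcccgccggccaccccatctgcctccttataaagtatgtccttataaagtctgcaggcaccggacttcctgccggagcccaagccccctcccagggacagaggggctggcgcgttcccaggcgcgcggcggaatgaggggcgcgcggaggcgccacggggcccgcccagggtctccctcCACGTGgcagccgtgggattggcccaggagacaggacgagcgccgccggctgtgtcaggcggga
The motifs were TGACGTCA (cAMP response element), TGATGNAA (C/EBP-ATF composite), GTAAACA (FOXO), AGAACA (a single arm of the palindromic glucocorticoid receptor element) and CACGTG (E-box), sought on both strands from 250 bases before to 50 after the start. No match overlapped another. Slc38a2 held none of the 5 in this window, and bases outside it were not searched. The capitals in Slc43a1 mark an E-box from 64 to 59 bases before the start, a motif found in 7.15% of 32817 promoters. The only other match among the 8 promoters was this single arm of the glucocorticoid receptor element in 1 of 3 promoters of Slc38a4, and 19.0% of all promoters hold those letters. Matching promoters to the cAMP element (1.79% of all promoters), the composite element (3.97%) and the FOXO motif (3.65%) gave no hit among the 8. The bases before the start were 72.0% G and C in Slc38a2 and 70.8% in Slc43a1, against a median of 52.4% over all promoters.

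Slc38a4 (ENSMUSG00000022464), which encodes SNAT4, the other system A carrier abundant in liver, lies on the same strand of chromosome 15 from 96994820 to 97055956, and Slc38a1 lies on the far side of Slc38a2 from 96571418 to 96642913. In GF+MEV livers 1 to 5 Slc38a4 was at 1513, 1483, 1647, 1568 and 1546 CPM. In GF+PBS livers 1 to 5 it was at 1071, 1300, 1164, 1397 and 1476 CPM. The groups did not overlap, but GF+PBS liver 5 came within a few CPM of the lowest GF+MEV liver. The log2 fold change was 0.28 ± 0.09 (SE), which missed the threshold (edgeR adjusted p = 0.054, and p = 0.00794 in the exact permutation test). It passed with DESeq2 (adjusted p = 0.015) and with limma-voom (adjusted p = 0.037), and by edgeR without GF+PBS replicate 5 (adjusted p = 0.023). With library totals alone it was weaker (log2 fold change 0.20, edgeR adjusted p = 0.19). Slc38a1, which encodes another system A carrier known mainly outside the liver, was near 1.5 CPM in both groups (1.48 ± 0.792 in GF+MEV, 1.52 ± 0.322 in GF+PBS, SD, n = 5 each). Of these 3 neighbours on the chromosome, then, the edgeR test called Slc38a2, and the log2 fold changes of the others were 0.28 and -0.02.

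Per length of exon, Slc38a2 made up 3.66% ± 0.191 of the summed RPKM of these 3 system A genes in GF+PBS and 12% ± 1.31 in GF+MEV (SD, n = 5 each), and Slc38a4 most of the rest. The share of Slc38a2 lay between 3.49% and 3.99% in GF+PBS livers and between 10.4% and 13.3% in GF+MEV livers, without overlap. The summed level was 312 ± 40.7 RPKM in GF+PBS and 414 ± 13.7 RPKM in GF+MEV. Slc38a4 was thus the main system A transcript in every liver of both groups.

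Slc38a3 (ENSMUSG00000010064, chromosome 9 from 107650634 to 107669530) encodes SNAT3, the sodium-coupled carrier of glutamine, asparagine and histidine known as system N. It had the highest level per length of the 8 genes in both groups and ranked 108 of 12137 genes by mean RPKM. In GF+MEV livers 1 to 5 it was at 2388, 1947, 2573, 2222 and 2324 CPM. In GF+PBS livers 1 to 5 it was at 2513, 2800, 2455, 3021 and 2788 CPM. The GF+MEV livers were lower on average, with 4 of 5 under the lowest GF+PBS liver and liver 3 inside the GF+PBS range. The log2 fold change was -0.25 ± 0.09 (SE) and was not called (edgeR adjusted p = 0.082, exact permutation p = 0.0238). DESeq2 called it (adjusted p = 0.041). Slc38a2 and Slc38a4 of system A and Slc38a3 of system N thus had log2 fold changes of opposite sign, and of the 3 edgeR called Slc38a2. Without GF+MEV replicate 3, Slc38a3 was called by edgeR as well (adjusted p = 0.049). Without GF+PBS replicate 4 it was weaker (log2 fold change -0.20, edgeR adjusted p = 0.19).

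Slc7a2 (ENSMUSG00000031596, chromosome 8 from 40862396 to 40922308) encodes CAT2, a carrier of arginine, lysine and ornithine, whose liver form is known for its low affinity and high capacity. In GF+MEV livers 1 to 5 it was at 1011, 1134, 1196, 1159 and 997 CPM. In GF+PBS livers 1 to 5 it was at 381, 526, 462, 674 and 804 CPM. The groups did not overlap, and the GF+PBS livers were spread more widely than the GF+MEV livers, with a coefficient of variation of 29.8% against 8.18%. The means were 1099 ± 89.9 and 569 ± 169 CPM (SD, n = 5 each), a fold of 1.93 and a log2 fold change of 0.95 ± 0.20 (SE, adjusted p = 0.0015 by edgeR, exact permutation p = 0.00794). Its exons share 635 of 9135 bases with the lincRNA gene Gm26584 on the other strand, whose reads a count without strand cannot separate. Gm26584 has no row of its own among the genes analysed here.

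Slc43a1 (ENSMUSG00000027075, chromosome 2 from 84838850 to 84863594) encodes LAT3, a facilitated carrier of leucine and other large neutral amino acids. It was the least abundant of the 8, with 92 counts in its lowest library. In GF+MEV livers 1 to 5 it was at 8.78, 11.7, 12.2, 10.4 and 10.8 CPM. In GF+PBS livers 1 to 5 it was at 5.11, 7.85, 8.87, 7.78 and 7.81 CPM. The groups overlapped by 1 liver, with 4 GF+MEV livers above all of GF+PBS and GF+MEV liver 1 just under GF+PBS liver 3. The log2 fold change was 0.53 ± 0.16 (SE, adjusted p = 0.028 by edgeR, exact permutation p = 0.0159). This call was lost without GF+MEV replicate 2 (edgeR adjusted p = 0.058), 3 (0.073) or 5 (0.051), and without GF+PBS replicate 4 (0.055).

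The other members were not called. Slc1a2 (ENSMUSG00000005089, chromosome 2 from 102658659 to 102790784) encodes the glutamate carrier EAAT2, known in liver from the hepatocytes around the central vein. In GF+MEV livers 1 to 5 it was at 173, 197.8, 183, 177 and 180 CPM. In GF+PBS livers 1 to 5 it was at 118, 172, 133, 162 and 190 CPM. GF+PBS livers 1 to 4 were under all GF+MEV livers, by about 1 CPM in the case of liver 2, and GF+PBS liver 5 lay inside the GF+MEV range. The log2 fold change was 0.23 ± 0.13 (SE, adjusted p = 0.22 by edgeR). Its exons share 189 of 13133 bases with the antisense gene Gm13872.

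Slc16a10 (ENSMUSG00000019838, chromosome 10 from 40033532 to 40142258), which encodes TAT1, a facilitated carrier of tyrosine, tryptophan and phenylalanine, had 91.5 to 116 CPM in GF+MEV livers and 80.7 to 105 CPM in GF+PBS livers. The log2 fold change was 0.05 ± 0.09 (SE, adjusted p = 0.80 by edgeR), and its sign changed with library totals alone (-0.03) and without GF+MEV replicate 4 (-0.02). Slc3a2 (ENSMUSG00000010095, chromosome 19 from 8706882 to 8723369) encodes the heavy chain 4F2hc (CD98), which brings several SLC7 light chains to the cell surface. Its GF+MEV livers lay between 34.4 and 37.2 CPM, inside the GF+PBS range of 33.0 to 42.6 CPM. GF+PBS liver 5 was the lowest of all 10, and the other GF+PBS livers were above all of GF+MEV. The log2 fold change was -0.14 ± 0.06 (SE, adjusted p = 0.28 by edgeR). Of 6 light chain genes listed as its partners, 3 were in the table, none was called, and all had means under 5 CPM, with log2 fold changes of 0.46 for Slc7a5, -0.07 for Slc7a7 and -0.45 for Slc7a8.

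Compared per length, the order of the levels differed between the groups mainly by the place of Slc38a2. In GF+PBS, Slc38a3 (515 ± 43.9 RPKM), Slc38a4 (301 ± 38.9) and Slc7a2 (62.3 ± 18.6) came first, with no overlap between neighbours (SD, n = 5 each). Slc16a10 (12.9 ± 1.36 RPKM), Slc1a2 (11.8 ± 2.23), Slc38a2 (11.5 ± 1.96) and Slc3a2 (11 ± 1.01) followed, each overlapping the next. Slc43a1 was last at 1.31 ± 0.246 RPKM. In GF+MEV, Slc38a3 (434 ± 43.7 RPKM) and Slc38a4 (364 ± 14.7) overlapped each other. Slc7a2 (120 ± 9.84 RPKM) and Slc38a2 (49.6 ± 5.16) stood apart from their neighbours, ahead of Slc1a2 (13.9 ± 0.719) and Slc16a10 (13.4 ± 1.38), which overlapped. Slc38a2 thus left the group of 4 genes near 12 RPKM that it belonged to in GF+PBS.

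**Figure D2:**
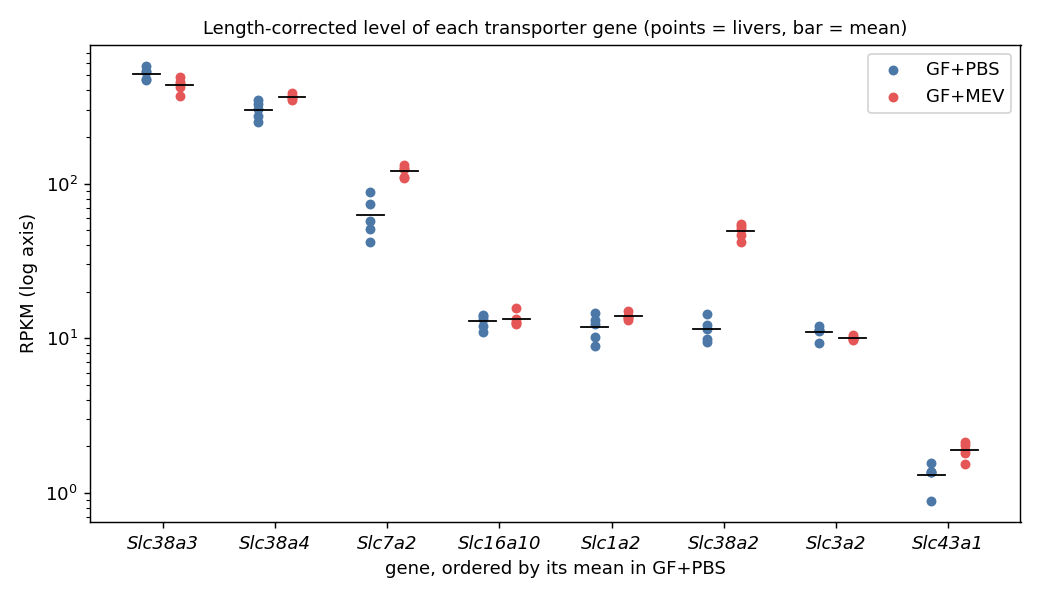
RPKM (y axis, log scale) of the 8 transporter genes in each GF+PBS (blue) and GF+MEV (red) liver, with a black bar at the mean, genes ordered by their GF+PBS mean. Slc38a2 stands at 11.5 RPKM on average beside Slc16a10, Slc1a2 and Slc3a2 in GF+PBS, and at 49.6 RPKM in GF+MEV.

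Among the GF+PBS livers several members had a like order. GF+PBS livers 1 and 3 were the lowest pair in 6 of the 8 genes (Slc1a2, Slc7a2, Slc16a10, Slc38a2, Slc38a3 and Slc38a4) and the highest pair in Slc3a2. Over all tested genes they were the lowest pair in 18.3% and the highest pair in 15.4%. GF+PBS liver 5 was the highest of its group in 5 of the 8 genes and the lowest in Slc3a2. The order of all 5 livers was the same for Slc7a2, Slc38a2 and Slc38a4, namely 1, 3, 2, 4 and 5 from low to high. Across all 10 livers, with the group means removed, the log2 CPM of Slc7a2 had a Pearson r of 0.95 with that of Slc38a4, 0.86 with Slc38a2 and -0.80 with Slc3a2. By the same measure Slc1a2 had an r of 0.87 with Slc7a2 and 0.86 with Slc38a4, and Slc16a10 one of 0.79 with Slc38a2. Some pairs were weakly related, with 0.17 for Slc38a2 and Slc38a3, 0.24 for Slc38a2 and Slc43a1, 0.13 for Slc16a10 and Slc38a3 and 0.10 for Slc38a3 and Slc43a1. These values share library scaling and are given without a test. Slc43a1 did not have the order of the others, with GF+PBS liver 1 lowest and liver 3 highest. The coefficient of variation in GF+PBS was more than 2 times that in GF+MEV for 4 genes, Slc1a2, Slc3a2, Slc7a2 and Slc38a4. For this count, for liver 5 and for the shared order, shares over all tested genes are not given. They are therefore not read as particular to the transporters. The clock gene Per3 also set these livers apart, with 19.5 and 23.1 CPM in GF+PBS 1 and 3 and 57.7 to 68.1 CPM in 2, 4 and 5, a comparison made with earlier results of these data known. Its part in the spread of the transporters was not tested. With GF+PBS 1 and 3 summed into 1 sample and 4 and 5 into another, Slc38a2, Slc7a2 and Slc43a1 were still called, with log2 fold changes of 2.13, 0.98 and 0.53.

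**Figure D3:**
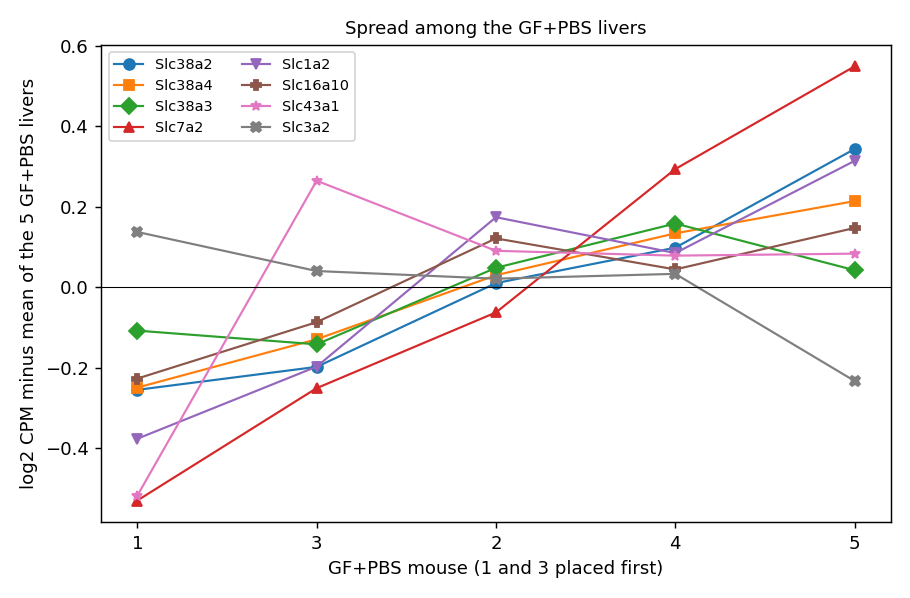
Log2 CPM minus the mean of the 5 GF+PBS livers (y axis) for each transporter gene in each GF+PBS liver (x axis, mice 1 and 3 placed first), 1 line per gene. All lines but those of Slc3a2 and Slc43a1 lie under 0 in both mouse 1 and mouse 3.

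A wider list held 49 other genes for carriers of the plasma membrane or lysosome, mostly from amino acid transporter families. Not all of them are known to carry amino acids. Of the 49, 24 were in the table and tested. Of these 24, 1 was called higher, 2 were called lower and 21 were not called, beside 4.12% and 3.52% of all genes, and their median log2 fold change was -0.04. Slc15a4, which encodes a lysosomal carrier of histidine and small peptides, was higher, at 27.5 ± 1.57 CPM in GF+MEV and 17.8 ± 3.62 CPM in GF+PBS (SD, n = 5 each, log2 fold change 0.62, edgeR adjusted p = 0.0038). Part of its exons lies opposite Gm43474. Slc38a7, which encodes the lysosomal glutamine exporter SNAT7, was lower, at 26.1 ± 0.997 CPM in GF+MEV and 32.8 ± 2.05 CPM in GF+PBS (SD, n = 5 each, log2 fold change -0.33, edgeR adjusted p = 0.0043). Slc36a1, which encodes the proton-coupled carrier PAT1, also present on lysosomes, was lower as well (log2 fold change -0.29, edgeR adjusted p = 0.029). This last call was lost without GF+MEV replicate 2 (edgeR adjusted p = 0.070) or 5 (0.072) and without GF+PBS replicate 2 (0.066), 3 (0.061) or 5 (0.054). In all 3 genes the groups did not overlap, beside 7.39% of all tested genes, but these 3 were picked because they were called. The 5 of these 24 genes with the highest mean RPKM were Slc6a13 (68.3 RPKM) and Slc6a12 (32.9), which carry GABA, taurine or betaine, then Slc38a10 (18.5), the taurine carrier gene Slc6a6 (12.2) and Slc36a1 (7.17). The first 4 had log2 fold changes between -0.06 and 0.06 and were not called.

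**Figure D4:**
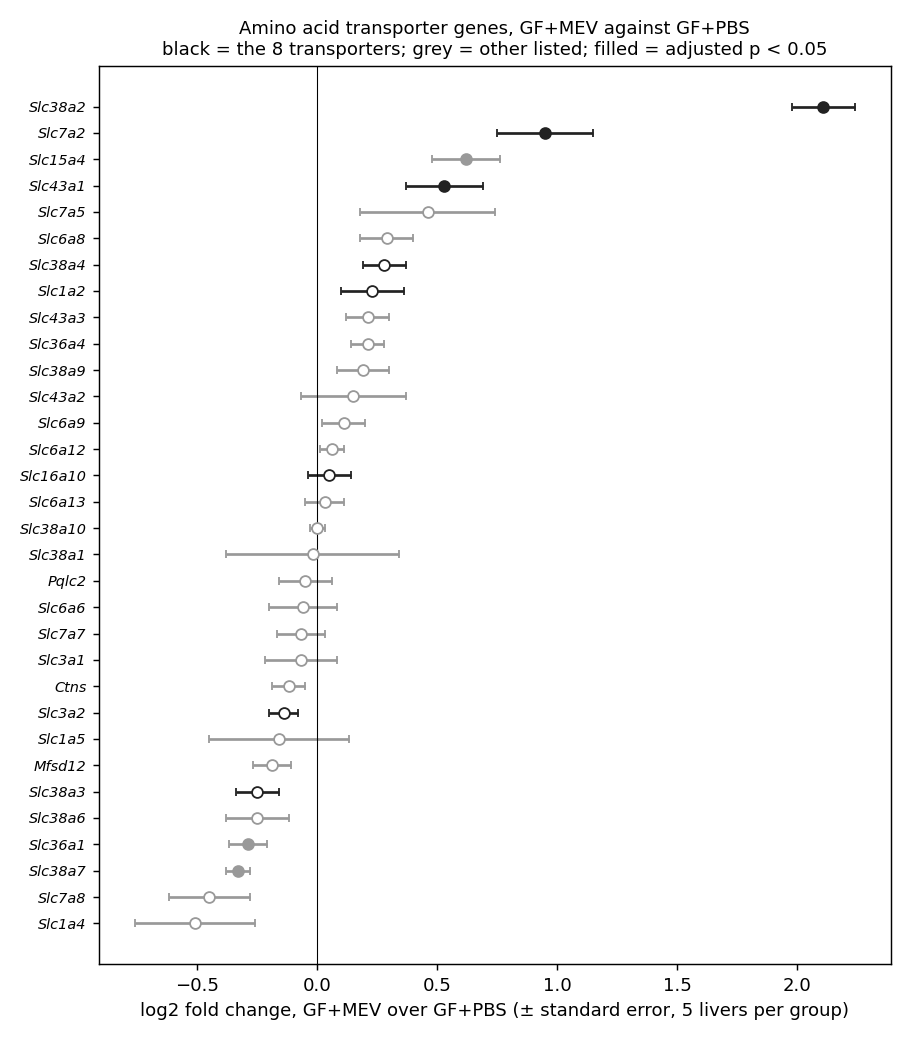
Log2 fold change of GF+MEV over GF+PBS with its standard error (x axis, 5 livers per group) for the 8 transporter genes (black) and the 24 other listed transporter genes that were tested (grey), filled where the edgeR adjusted p was under 0.05. Slc38a2 (2.11) and Slc7a2 (0.95) lie farthest to the right, and Slc1a4 (-0.51, not called) farthest to the left.

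Enzymes that act on the carried amino acids were listed beside the transporters. Of 35 such genes, all tested, 11 were called higher, none lower and 24 were not called, beside 4.12% of all genes higher and 3.52% lower, and their median log2 fold change was 0.07. The largest rises were in Tat (2.10), which encodes tyrosine aminotransferase, Sds (1.58), serine dehydratase, Got1 (1.27), cytosolic aspartate aminotransferase, and Asl (0.75), argininosuccinate lyase of the urea cycle (edgeR adjusted p from 7.6e-08 to 0.00061). Arg1, the arginase that splits the arginine carried by CAT2, rose by 0.31 (edgeR adjusted p = 0.011). Glul and Gls2, which make and split the glutamine carried by SNAT3, had log2 fold changes of 0.01 and 0.04 and were not called. In GF+PBS, the pair 4 and 5 was high for Tat (1040 and 988 CPM against 723 to 775 in 1, 2 and 3) and for Sds (139 and 130 CPM against 82.4 to 95.9), as it was for Slc7a2.

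Lists of genes known to be higher around the portal or the central vein were read for comparison with Slc1a2. Of 15 periportal genes, 8 were called higher and none lower (4.12% and 3.52% of all genes, median log2 fold change 0.31), with Pck1 (1.71), a gene of glucose synthesis, Sds, Asl and Cps1 (0.38), of the urea cycle, rising most. This list shares Arg1, Asl, Ass1, Cps1, Gls2, Hal and Sds with the enzyme list. Of 14 pericentral genes tested, 4 were called lower and none higher (median -0.28), namely the Wnt pathway inhibitor genes Rnf43 (-1.06) and Axin2 (-1.01), the transcription factor gene Tbx3 (-0.97) and Lect2 (-0.50). Among the more abundant pericentral genes, Glul, Oat and Cyp2e1 had log2 fold changes of 0.01, 0.00 and 0.02. Cyp1a2, also abundant, had one of -0.20 and was not called (edgeR adjusted p = 0.16). Slc1a2, with 0.23, was not called in either direction.

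Slc38a2 is usually counted among the genes induced by amino acid shortage through the factor ATF4. Of 19 other genes of that kind tested, 2 were called higher, 1 lower and 16 were not called, beside 4.12% and 3.52% of all genes, and the median log2 fold change was 0.05. The transcription factor genes Cebpb (2.0) and Atf3 (0.98) were higher, and Atf4 itself was lower, at 77.3 ± 4.13 CPM in GF+MEV and 98.9 ± 6.78 CPM in GF+PBS (SD, n = 5 each, log2 fold change -0.36, edgeR adjusted p = 0.0024). Exons of Cebpb overlap those of Tmem189 on the other strand. Asns, which encodes asparagine synthetase, had a fold change of 0.74 on the log2 scale (edgeR adjusted p = 0.17) with overlapping groups, and Trib3 one of 0.12 (edgeR adjusted p = 0.61). Also not called were Chac1 (0.68, edgeR adjusted p = 0.11) and Ddit3 (-0.42, edgeR adjusted p = 0.25). Sesn2 (0.36) just missed the threshold (edgeR adjusted p = 0.053), with no overlap between the groups. These are RNA levels, and ATF4 protein was not measured. Of 23 tested genes of amino acid sensing by mTORC1, the inhibitor gene Ddit4 (3.98) was called higher and Flcn (-0.33) lower, and 21 were not called, among them Slc38a9 (0.19), the lysosomal arginine sensor. With 1 gene in each direction, these counts were near the 4.12% and 3.52% of all genes.

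By the Pearson r of log2 CPM over the 10 livers, among 7479 other genes with a symbol and a mean of at least 10 CPM, the genes most like Slc38a2 included the kinase gene Pim3 (0.993) and Tat (0.992). Those most like Slc7a2 were Mbd1 (0.987), the coactivator gene Ppargc1a (0.981) and Gfra1 (0.971), and those most like Slc43a1 were Hipk1 (0.944), Nfrkb (0.940) and Rnf214 (0.934). These values include the difference between the groups, the points share the libraries, and no test was run on them.

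Hepatocyte markers were at the level of a liver in every library. The 5 tested of 6 listed summed to between 83500 and 103000 CPM in GF+MEV and between 88000 and 104000 CPM in GF+PBS, and none was called. No marker of Kupffer cells (6 tested), stellate cells (5), skeletal muscle (4) or pancreas (1) was called. The summed muscle markers lay between 224 and 310 CPM in GF+MEV and between 191 and 664 CPM in GF+PBS, and the myosin gene Myh4 was at 87.5 and 112 CPM in GF+PBS 1 and 2 and between 224 and 315 CPM in 3, 4 and 5. The summed Kupffer cell markers lay between 159 and 313 CPM in GF+MEV and between 193 and 276 CPM in GF+PBS. GF+MEV liver 4, the highest of all livers for Slc16a10, had 21.2 CPM of Marco and 150 CPM of Cd5l, where the other GF+MEV livers had at most 2.17 and 91.1 CPM. The GF+PBS livers had at most 5.66 CPM of Marco and 136 CPM of Cd5l. Clec4f (101 CPM), Vsig4 (24.6 CPM) and Timd4 (9.32 CPM) were also highest of all livers in GF+MEV liver 4, by small margins. Cd68 was not, at 7.47 CPM against 7.97 CPM in GF+MEV liver 3 and 9.05 CPM in GF+PBS liver 1. Summed stellate cell markers lay between 126 and 208 CPM in GF+MEV and between 161 and 172 CPM in GF+PBS, and the pancreas gene Cela1 between 13.2 and 15.2 CPM and between 11.4 and 20.3 CPM. The summed endothelial markers lay between 83.8 and 135 CPM in GF+MEV and between 103 and 137 CPM in GF+PBS, with Lyve1 called higher and Clec4g lower. Of 4 leukocyte markers tested, the B cell genes Cd79a (-0.87) and Cd79b (-0.76) were called lower, beside 3.52% of all genes. Cd79a had means of 1.3 CPM in GF+MEV and 2.39 CPM in GF+PBS, and Cd79b 1.37 and 2.34 CPM. Ptprc (-0.23, edgeR adjusted p = 0.62) and the B cell gene Ms4a1 (-0.66, edgeR adjusted p = 0.26) were not called. The 4 markers, mostly Ptprc, summed to 7.11 to 14.6 CPM in GF+MEV and 11.5 to 15.3 CPM in GF+PBS, and Cd3e had no row in the table. Of 3 biliary markers, Krt19 was called higher (3.87), while Spp1 (0.52, edgeR adjusted p = 0.13) and Sox9 (-0.98, edgeR adjusted p = 0.10) were not called. Their sums were 28.1 to 79.3 CPM in GF+MEV and 23.2 to 29.7 CPM in GF+PBS, with the highest value in GF+MEV liver 2 (Krt19 16.8 CPM, Spp1 61.1 CPM), and Epcam and Krt7 had no row in the table. The part of these cell types in the transporter values was not tested.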

How the data were processed

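Liver RNA of 5 GF+MEV and 5 GF+PBS mice was analysed from raw gene counts. The authors aligned the reads to GRCm38 with STAR 2.7.3a, counted them per Ensembl gene with HTSeq (strand setting not given in the sources used here), removed genes with low counts and deposited the counts without normalization. Each gene in the table reached 20 counts in at least 1 column. Of the columns, 5 match no sample described here and were not used. Genes whose counts over the 10 libraries added up to 20 or more entered the test in edgeR 4.0.16 in R 4.3.3 (TMM, quasi-likelihood test on the group alone, Benjamini-Hochberg adjustment over 12147 genes). Standard errors were taken from log2 CPM (prior count 2), and exact permutation tests used the same values. Symbols, positions and exon lengths came from GENCODE M21, where 10 identifiers had no entry. Library pairs within a group (20) differed by a chi-square of at least 6.36 per gene, so none was counted as a copy.

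The members and the gene lists were chosen with earlier results of these data known. Named were all members, each called gene and the 5 most abundant of the wider transporter list, up to 4 rises and 4 falls of each other list, and the 3 genes most like each called member, except for an item that is not reported here. Arg1, Glul, Gls2, Oat, Cyp2e1, Cyp1a2, Asns, Trib3, Chac1, Sesn2, Ddit3, Slc38a1, Slc1a4, Slc38a9, Per3, Myh4, Marco, Cd5l, Clec4f, Vsig4, Timd4, Cd68, Cela1, Ptprc, Ms4a1, Spp1, Sox9 and the light chain genes were named beside this rule, after their values were seen. Each test was also tested on simulated data. Alternatives were DESeq2 1.42.0, limma-voom (limma 3.58.1), other scalings and filters, a replicate block, summed GF+PBS livers and each liver left out. P-values rest on 5 mice per group.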

Additional observations from a re-analysis of the deposited data

Results flagged for a closer look

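Dixon's ratio was computed in 22 groups of 5 values and set 1 liver apart in 3 of them, and by chance about 1 in 20 groups is so marked. In GF+MEV replicate 4, Slc16a10 stood at 115.8 CPM, while the other GF+MEV livers lay between 91.5 and 98.2 CPM, and without that liver its log2 fold change was -0.02. In GF+PBS replicate 1, Slc43a1 stood at 5.108 CPM, while the others of its group lay between 7.78 and 8.87 CPM. GF+MEV replicate 2 had a TMM factor of 0.8902, lower than those of its group, which lay between 0.978 and 1.01. Its 10 genes with the most counts held 24.35% of them, against 17.27% to 18.61% in the other GF+MEV livers. Its pairs with those livers differed by a chi-square of 135 to 176 per gene, against at most 25 in any other pair within a group. Without that library the log2 fold change of Slc43a1 was 0.50 and no longer passed the threshold (edgeR adjusted p = 0.058), and Slc38a2 and Slc7a2 were still called. Slc38a3 was lowest of all livers in that library (1947 CPM), and its log2 fold change without it was -0.19.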

How the results depend on the processing

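Slc38a2 (log2 fold change 2.03 to 2.20) and Slc7a2 (0.83 to 1.11) were called under all 19 alternatives, with adjusted p-values of at most 1.6e-06 and 0.0059. Slc43a1 (0.42 to 0.59) lost its call in 5, the leave-outs named above and library totals alone (0.45, edgeR adjusted p = 0.059). Slc38a4 (0.20 to 0.33) gained one in 3, DESeq2, limma-voom and without GF+PBS replicate 5 (edgeR adjusted p = 0.023). With library totals alone its edgeR adjusted p was 0.19. For Slc38a3 (-0.31 to -0.19) the edgeR adjusted p was 0.19 without GF+PBS replicate 4. Slc38a3 gained a call in 3, DESeq2, upper-quartile scaling (edgeR adjusted p = 0.036) and without GF+MEV replicate 3 (edgeR adjusted p = 0.049). Members called lower were thus 1 with DESeq2, with upper-quartile scaling and without GF+MEV replicate 3. Over all tested genes these settings called 544, 612 and 332 genes lower, against 428 in the main test. Slc16a10 changed sign with library totals alone (-0.03), and ranged from -0.02 to 0.09 with 1 liver left out (0.00 without GF+PBS replicate 1). Without 1 liver, 2 to 4 members were called higher and 0 to 1 lower, 1 or 2 of the wider transporter list were lower, and 696 to 926 genes were called in all, 388 to 561 higher and 304 to 397 lower. Library totals alone gave 332 genes higher and 691 lower. Summing alike GF+PBS livers left 561 genes called, 209 of them lower, and 1 wider-list transporter lower. Slc36a1 lost its call in 7 alternatives (edgeR adjusted p up to 0.080), while Slc15a4 and Slc38a7 kept theirs in all 19.

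The replicate numbers of the labels do not pair the livers. Deviations of same-numbered livers correlated from -0.29 to 0.26, and 2 of 10 livers correlated best with their own number. With the number as a replicate block 792 genes were called and 1 wider-list transporter was lower. Slc36a1 missed the threshold under the block (edgeR adjusted p = 0.080), and no call of the 8 members changed. Slc43a1 had the fewest counts of the 8 members, with 92 counts in its lowest library. The cause of the lost calls was not tested.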
